A study of Mus musculus with 9 samples.

Results

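Knockdown of Suz12, a core subunit of Polycomb repressive complex 2 (PRC2), was compared with a control hairpin across 19937 genes in a mouse leukaemia cell line. The comparison used 6 of the 9 arrays of the series, chosen by their titles: 3 arrays of cells with a Suz12 shRNA and 3 arrays of cells with an shRNA against Renilla luciferase (Rluc), which has no target in mouse cells. The other 3 arrays held cells with an Eed shRNA; they entered the estimate of the spread and a direct comparison at the end. All 3 groups, controls included, had the genotype MLL-AF9/NrasG12D on the background B6/SJL(CD45.2), so that each carried an MLL fusion oncogene together with an activated Nras allele. Cells of all groups grew in RPMI1640 medium with serum, received the LMN vector from an MSCV-based virus, and were labelled day 5. The series asked which genes lie downstream of PRC2 in MLL-AF9 leukaemia. As a model the material is a single cultured line, and the labels name 1 hairpin per target. Nothing in the labels says that replicate arrays of a group stem from independent cultures, and p-values therefore measure only array-to-array spread, which may be technical.

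PRC2 places methyl groups on lysine 27 of histone H3 through its catalytic subunit, Ezh2 or Ezh1. Suz12 and Eed are the other core subunits, and without them the enzyme is unstable and largely inactive. The mark is associated with repression of developmental regulators and of genes of alternative cell fates, and in blood cells PRC2 restrains the cell cycle inhibitors of the Cdkn2a locus.

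Values are log2 array signals after robust multi-array averaging (RMA). The array medians lay between 6.86 and 6.95, and the SD of the gene-wise difference between 2 arrays was 0.102 to 0.14 within a group and 0.241 to 0.275 between a Suz12 shRNA and a control array. No array stood apart from its group. All 14 genes of a list for myeloid leukaemia cell identity lay above a background guide of 6.32, the 95th percentile of 1027 olfactory receptor genes in the controls. Among them Spi1, the transcription factor PU.1, had control values of 12.4, 12.46 and 12.35.

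Suz12 itself fell. Its control arrays read 12.1, 12.09 and 12.23 and its Suz12 shRNA arrays 10.14, 10.06 and 10.28. The groups were far apart, with a fitted change of -1.98 (log2, SE 0.07, 95% interval -2.12 to -1.83, n = 3 against 3, adjusted p = 5.44e-08 by limma with Benjamini-Hochberg adjustment over all genes), which is 3.94-fold lower. Suz12 had the largest fall of all genes tested.

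The remaining PRC2 genes moved little. Of 12 subunits measured, 2 rose and 3 fell, Suz12 included. The partner core subunits did not pass: Eed changed by -0.14 (95% interval -0.31 to 0.03, adjusted p = 0.274). Ezh2, the main catalytic subunit, changed by -0.01 (95% interval -0.09 to 0.06, adjusted p = 0.882). Ezh1, the alternative catalytic subunit, rose by 0.24 (SE 0.05, adjusted p = 0.0091). Among the Polycomb-like proteins that help recruit PRC2, Phf1 rose by 0.35 (SE 0.08) and Phf19 fell by 0.42 (SE 0.06), with adjusted p of 0.00811 and 0.000885. The fall of the histone chaperone subunit Rbbp7, by 0.16, was adjusted p = 0.0361 and lost its call under 8 of the other settings.

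Of 19 genes of the sister complex PRC1, which binds the PRC2 mark and ubiquitinates histone H2A, 2 rose and 3 fell, or 6 and 2 with cyclic loess scaling. Bmi1, a ring finger subunit and repressor of Cdkn2a, had control values of 9.92, 9.68 and 9.99 and knockdown values of 10.93, 10.56 and 10.5. All 3 knockdown arrays were above all controls, a rise of 0.80 (SE 0.11, adjusted p = 0.000551, 1.74-fold). Over all genes the arrays of the groups did not overlap in 31.8%. Kdm2b, which brings a variant PRC1 to CpG islands, fell by 0.33 (SE 0.06). Ring1, an E3 ligase subunit, fell by 0.21 (SE 0.04).

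Across all genes, the knockdown altered many genes slightly and few strongly. A gene was called when its adjusted p was under 0.05, and 4222 of 19937 genes were called (21.2%). Of these, 1644 were higher (8.25% of genes tested) and 2578 lower (12.9%). The counts of every gene list here are to be read beside these shares. The fit without adjustment gave 6109 genes at p under 0.05. In 88.5% of the calls the change was under 1.5-fold. The arrays of the groups did not overlap in 6345 genes (31.8%), and in 4184 of the 4222 called genes. Separate arrays in a called gene therefore add little to the call. The median change was 0.34 among genes called higher, -0.26 among those called lower and -0.02 over all genes.

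Large changes leaned the other way from small ones. At 1.5-fold or more, 405 genes were higher (2.03%) and 79 lower (0.396%), and at 2-fold or more 167 were higher (0.838%) and 15 lower (0.0752%). The share of all calls that were higher, 38.9%, depended on the scaling: it was 32.2% after centring each array on its median, 44.4% after quantile normalization and 55.1% after cyclic loess. Among calls of at least 1.5-fold the share that was higher was 83.7%, and it stayed between 80.8% and 88.9% under those scalings. The direction of the many small changes therefore rests on the scaling, and that of the large ones did not.

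**Figure D1:**
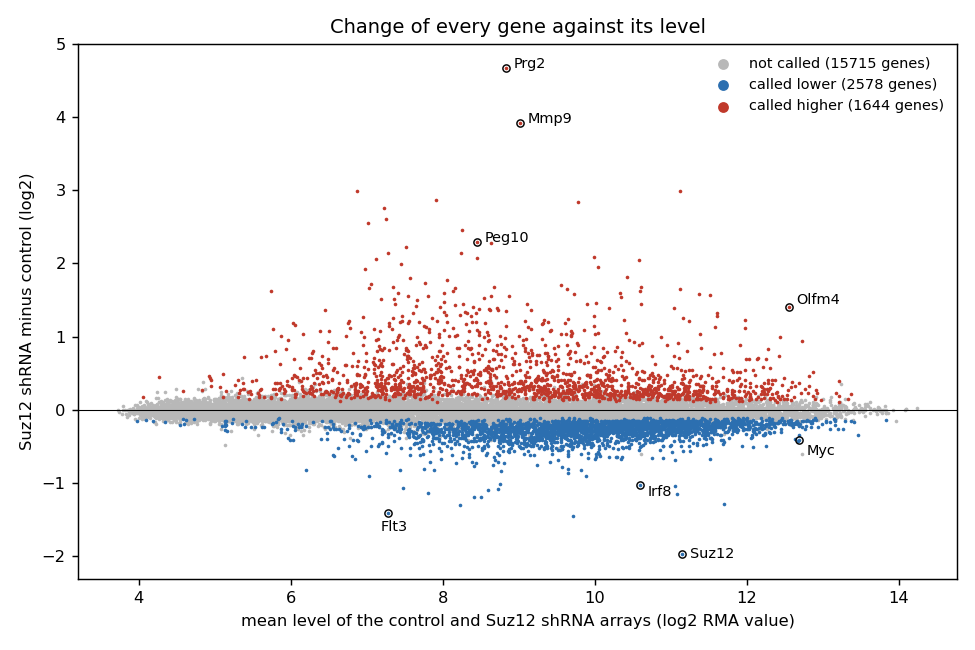
Each point is a gene, with its mean level over the 6 arrays on the x axis (log2 RMA value) and the Suz12 shRNA minus control difference (log2) on the y axis; red points were called higher, blue ones lower and grey ones were not called. The 1644 higher genes reach up to 4.67, whereas the 2578 lower genes form a dense band close to 0, with Suz12 lowest at -1.98.

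Falls were concentrated among genes with high array signal, and strong rises among genes with middle signal. The genes were split into 5 equal groups by mean level over all 9 arrays, from level 1 (lowest) to level 5. That mean includes the knockdown arrays, so a large rise itself lifts the level of a gene. The place of the strong rises is therefore partly set by the rises. Called lower were 28.2% of genes at level 4 and 25.3% at level 5, against 9.28% at level 3 and 1.23% and 0.602% at levels 2 and 1. Called higher were 11.2%, 14.1% and 11.9% of genes at levels 3, 4 and 5. Of the 405 rises of at least 1.5-fold, 156 lay at level 3 and 158 at level 4, against 62 at level 5. Signal also depends on the probes, so the levels rank signals rather than transcripts.

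A small group of genes went from the background range to above it. In controls 6632 genes were at or below the guide of 6.32; 72 of them were called higher and lay above it in the knockdown, 22 with a rise of at least 2-fold, and 7 called genes made the opposite move. With the guide set at 6.0, the 90th percentile of those genes, the numbers were 50 and 12. Among the 22 were Akr1c18, a steroid and prostaglandin reductase (controls 5.46, 5.32 and 5.32, knockdown 8.7, 7.96 and 8.42), and Cd200r3, an activating receptor of the CD200R family (controls 5.55, 5.91 and 5.72, knockdown 8.29, 8.22 and 8.34). Bmp2, a secreted morphogen, crossed as well, from 5.88, 5.59 and 5.81 to 7.38, 7.11 and 6.89. In none of these 3 genes did the groups overlap, which held for 4184 of the 4222 called genes.

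Genes with strong and with weak responses differed in the CpG content of their promoters. Promoters of 300 bases (250 before to 50 after the start, RefSeq, GRCm38.p6) were available for 15005 of the 18116 protein-coding genes considered (82.8%). A promoter was put in the CpG class when at least 0.5 of its bases were G or C and its CpG count was at least 0.6 of that expected from its C and G content. The 4 promoters below show the highest and lowest CpG ratio among the 17 of 30 largest rises (Car4 and Stfa2) and the 17 of 20 largest falls (Suz12 and Ccr2) that had a promoter. Serpinb10 tied with Stfa2 at 0 CpG. Capitals mark CpG dinucleotides.

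Car4, chr11:84957504-84957803, plus strand, 15 CpG, ratio 0.64: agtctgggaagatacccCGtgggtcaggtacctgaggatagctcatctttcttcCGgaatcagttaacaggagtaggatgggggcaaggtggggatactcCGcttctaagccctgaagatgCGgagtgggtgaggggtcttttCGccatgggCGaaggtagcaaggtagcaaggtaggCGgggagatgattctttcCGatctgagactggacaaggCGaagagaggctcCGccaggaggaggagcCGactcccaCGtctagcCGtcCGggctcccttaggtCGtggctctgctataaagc
Stfa2, chr16:36408314-36408613, minus strand, 0 CpG, ratio 0.0: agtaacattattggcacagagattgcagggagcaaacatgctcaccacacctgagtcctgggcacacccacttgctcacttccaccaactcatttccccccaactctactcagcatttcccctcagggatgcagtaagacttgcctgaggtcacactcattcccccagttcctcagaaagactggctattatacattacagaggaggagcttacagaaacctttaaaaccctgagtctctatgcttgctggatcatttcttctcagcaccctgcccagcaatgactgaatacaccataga
Suz12, chr11:79992856-79993155, plus strand, 41 CpG, ratio 1.09: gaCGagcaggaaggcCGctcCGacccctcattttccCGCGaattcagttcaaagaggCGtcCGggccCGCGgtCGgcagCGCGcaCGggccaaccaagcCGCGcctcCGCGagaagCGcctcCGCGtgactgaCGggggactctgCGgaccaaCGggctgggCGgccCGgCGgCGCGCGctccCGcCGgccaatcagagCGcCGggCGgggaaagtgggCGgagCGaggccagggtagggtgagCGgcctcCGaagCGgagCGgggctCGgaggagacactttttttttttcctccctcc
Ccr2, chr9:124101933-124102232, plus strand, 1 CpG, ratio 0.09: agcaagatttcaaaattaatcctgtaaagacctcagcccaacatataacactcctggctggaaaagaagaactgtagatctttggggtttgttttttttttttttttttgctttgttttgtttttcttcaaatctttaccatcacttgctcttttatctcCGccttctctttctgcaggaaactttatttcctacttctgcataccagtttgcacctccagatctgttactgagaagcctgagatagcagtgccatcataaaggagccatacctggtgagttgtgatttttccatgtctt

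The Suz12 promoter is a typical CpG island, and those of Stfa2, a cytoplasmic inhibitor of cysteine proteases, and Ccr2, the receptor of monocyte chemoattractants, hold almost no CpG. Over all 15005 genes, 50.4% of promoters were in the CpG class. The share was 76.3% among genes called lower, 56.7% among genes called higher and 45.0% among genes not called. It was 41.6% among the 317 rises of at least 1.5-fold and 32.8% among the 131 rises of at least 2-fold. The median CpG ratio was 0.32 in that last group and 0.63 over all genes.

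Among genes of like signal, the difference between promoter classes depended on the level. At level 4, 21.6% of genes with other promoters rose against 11.6% of CpG-class genes, and at level 5 it was 19.9% against 9.43%. At level 3 the shares were alike, 12.2% and 12.1%, and at levels 1 and 2 they went the other way, 0.591% and 3.05% against 1.95% and 4.74% of CpG-class genes. Falls were more frequent in the CpG class at levels 3 and 4, at 13.5% and 30.7% against 6.67% and 22.7% of the others, and close at level 5, at 26.1% against 23.8%. These shares are descriptions over genes and were not tested. The levels include the knockdown arrays, so they partly follow the change itself. With cyclic loess, 14.3% of CpG-class genes rose and 14.6% fell, in place of 9.85% and 21.3%.

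**Figure D2:**
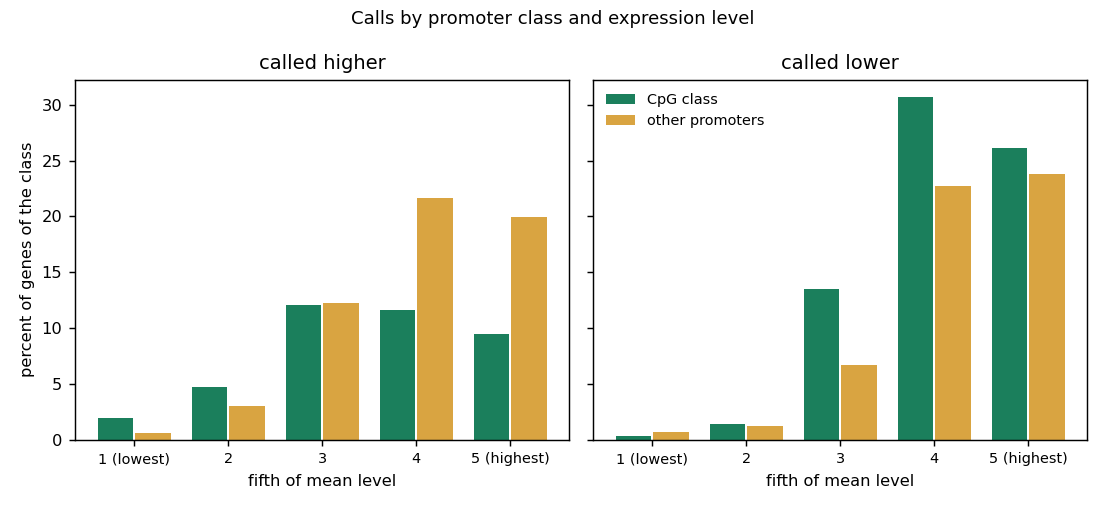
Percent of genes called higher (left) or lower (right) on the y axis by level group of mean signal on the x axis (1 lowest, 5 highest), for promoters in the CpG class (green) and other promoters (yellow). At levels 4 and 5, 21.6% and 19.9% of genes with other promoters rose, against 11.6% and 9.43% of CpG-class genes.

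A few short motifs were counted on both strands of the same windows; none of the searched strings contains another. AGGAAGT, a core bound by PU.1 and other ETS factors, was in 18.3% of the promoters of the 2-fold rises and in 8.80% of all promoters. TTGCNNAA, a loose form of the C/EBP site in which N is any base, was in 17.6% against 9.78%. TATAAA, the TATA box, was in 22.1% against 12.2%. AGATAA, the core site of Gata1 and its relatives, was in 11.5% against 9.50%. The matches among the 2-fold rises were 24, 23, 29 and 15 of 131 promoters, in the order given. Their median GC content was 53.3%, against 57.7% over all promoters, and the part of base composition in these shares was not tested. A match says only that the letters occur in the window.

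Granule genes of neutrophils split by the stage at which they are normally made. Of 25 genes of specific and gelatinase granules and late neutrophil maturation, 20 rose and 1 fell, with a median change of 0.84. Ngp, a granule protein of the cathelin family, read 10.55, 10.6 and 10.58 in controls and 12.19, 12.08 and 12.21 in the knockdown, a rise of 1.58 (SE 0.05, adjusted p = 2.88e-08, 2.99-fold). Olfm4, a specific granule glycoprotein, read 11.88, 11.82 and 11.86 in controls and 13.24, 13.22 and 13.3 after knockdown, a rise of 1.40 (SE 0.04). S100a8, a subunit of calprotectin, went from 11.09, 10.84 and 10.96 to 12.26, 12.14 and 12.34. In these 3 genes all knockdown arrays lay above all control arrays, and the groups were separate in 4184 of the 4222 called genes. In bulk samples such as these, fewer cells of a type and less RNA per cell cannot be told apart.

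Azurophil granule genes, normally made earlier, in promyelocytes, more often fell. Of 14 measured, 8 fell (57.1%, against 12.9% of all genes) and 3 rose (21.4%, against 8.25%), with a median of -0.2. The rises were both lysozymes and the peptidase Dpp7, at 0.49 (SE 0.06). Mpo, myeloperoxidase, read 13.32, 13.28 and 13.41 in controls and 13.08, 13.04 and 13.08 in the knockdown, a fall of 0.27 (SE 0.05, adjusted p = 0.00193). The serine proteases Elane, Prtn3 and Prss57 fell by 0.34, 0.43 and 0.59, and the cystatin Cst7 fell by 0.49. Each of these falls was small beside the rises above. The groups did not overlap, which held for 4184 of the 4222 called genes. Lyz2, lysozyme of the macrophage type, rose by 0.94, from 12.34, 12.24 and 12.2 to 13.19, 13.17 and 13.25 (SE 0.05, adjusted p = 6.14e-07). Its neighbour Lyz1 rose by 0.64, and since the paralogs are nearly identical their probes may share signal.

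Genes of other granulocytes rose strongly but fewer of them. Of 21 eosinophil, basophil and mast cell genes, 9 rose, all 9 by at least 1.5-fold, and 1 fell, while the median was 0.07. They included Epx, the eosinophil peroxidase, at 2.87 (SE 0.09) and the lipoxygenase Alox15 at 1.77 (SE 0.07). Il5ra, the receptor of the eosinophil growth factor interleukin 5, rose from 5.64, 5.23 and 5.23 to 6.33, 6.37 and 6.42, just above the background guide of 6.32. Of 32 monocyte and macrophage genes, 12 rose (37.5%, against 8.25% of all genes) and 3 fell (9.38%, against 12.9%). Adgre1, which encodes F4/80, rose by 1.23 and Cd14, the lipopolysaccharide co-receptor, by 1.28, whereas Ccr2 fell from 9.11, 9.02 and 9.33 to 8.07, 8.0 and 8.09, a change of -1.10 (SE 0.07, adjusted p = 5.33e-06). The markers of this class moved in both directions.

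**Figure D3:**
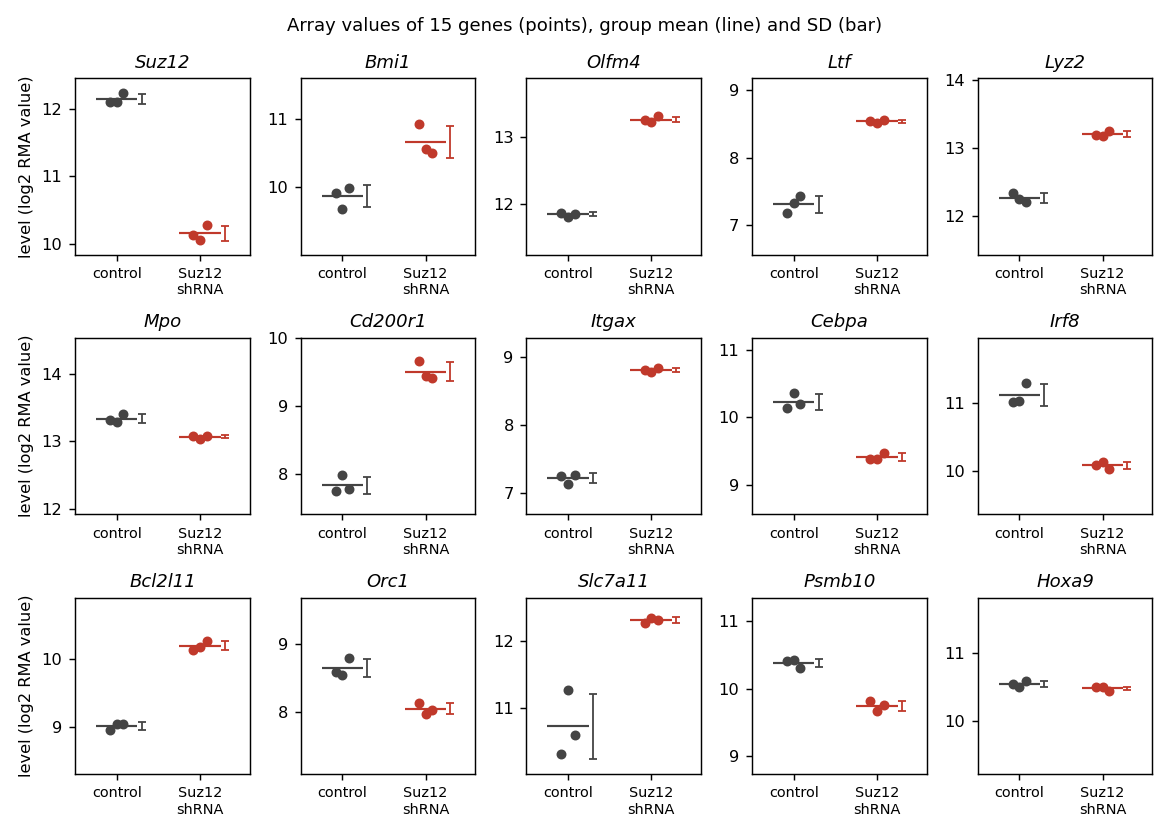
Array values (log2 RMA value, y axis, each panel spanning the same range) of 15 genes in the 3 control and 3 Suz12 shRNA arrays (x axis); points are arrays, lines group means and bars the SD. In 14 panels, all of called genes, the groups do not overlap, and in the panel of Hoxa9 they do. Over all genes the groups did not overlap in 31.8%, and among called genes in 4184 of 4222.

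Many surface receptors of the immunoglobulin superfamily rose. Of 41 Fc, LILR, PIR, CD200R and CD300 family genes, 26 rose (63.4%, against 8.25% of all genes), 15 were not called and none fell, with a median of 0.31. Pirb, an inhibitory receptor for MHC class I, read 7.84, 8.13 and 7.62 in controls and 9.37, 9.52 and 9.37 in the knockdown, a rise of 1.56 (SE 0.11, adjusted p = 7.06e-06). Lilra6, an activating relative, rose by 1.39 (SE 0.06). Cd200r1, the inhibitory receptor for CD200, rose from 7.74, 7.98 and 7.77 to 9.67, 9.45 and 9.41, or 3.2-fold. The arrays of both groups were separate in all 3 genes, as in 4184 of the 4222 called genes. Members of such families are similar in sequence, and probes of one may read another.

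Many of these receptor genes lie side by side. Among 19855 genes ordered on the chromosomes there were 12 runs of at least 4 neighbouring tested genes that were all called higher, with 58 genes, and 16 runs all called lower, with 66 genes. The longest held 9 genes on chromosome 11 and ran from Cd300a to Slc9a3r1. Within it Cd300lf, an inhibitory receptor, rose most, by 1.25, from 6.62, 6.69 and 6.86 to 7.9, 7.98 and 8.04. Its neighbours Cd300ld, Cd300e and Cd300lb rose by 0.97, 0.96 and 0.83. The interspersed Rab37, a secretory GTPase, rose by 0.25, and the flanking Slc9a3r1, a scaffold protein, by 0.22. The run therefore spans receptor and non-receptor genes, the latter with the smallest changes.

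Shorter runs of higher genes held other families. A run of 5 genes on chromosome 16 held Cd200r1, Cd200r4, Cd200r2, Cd200r3 and, next to them, Ccdc80, a secreted matrix protein, with rises of 1.68, 1.24, 1.28, 2.56 and 1.45. Another run of 5 on chromosome 16 held the stefins Csta3, Csta2, Cstdc6, Stfa2 and Stfa3, with rises from 0.87 (Csta3) to 2.05 (Stfa2). The C-type lectins Clec4a2, Clec4b2, Clec4n, Clec4d and Clec4e on chromosome 6 rose by 1.41, 0.45, 0.70, 0.38 and 0.32, and the last of these lost its call under 6 other settings. A run of 6 on chromosome 11 began with the chemokine Ccl6, which rose from 8.88, 8.95 and 8.99 to 10.45, 10.59 and 10.52, and ended with the whey acidic protein genes Wfdc17, Wfdc18 and Wfdc21. Between them lay the chemokines Ccl3 and Ccl4, at 0.39 and 0.81, which both lost their calls under 6 other settings, among them leaving out any one Suz12 array; the run then shrinks to the last 3 genes. Not every lectin followed: Clec12a, an inhibitory receptor of myeloid cells, fell from 11.7, 11.5 and 11.76 to 10.55, 10.43 and 10.54, and of 65 C-type lectin receptor genes 10 rose and 4 fell.

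**Figure D4:**
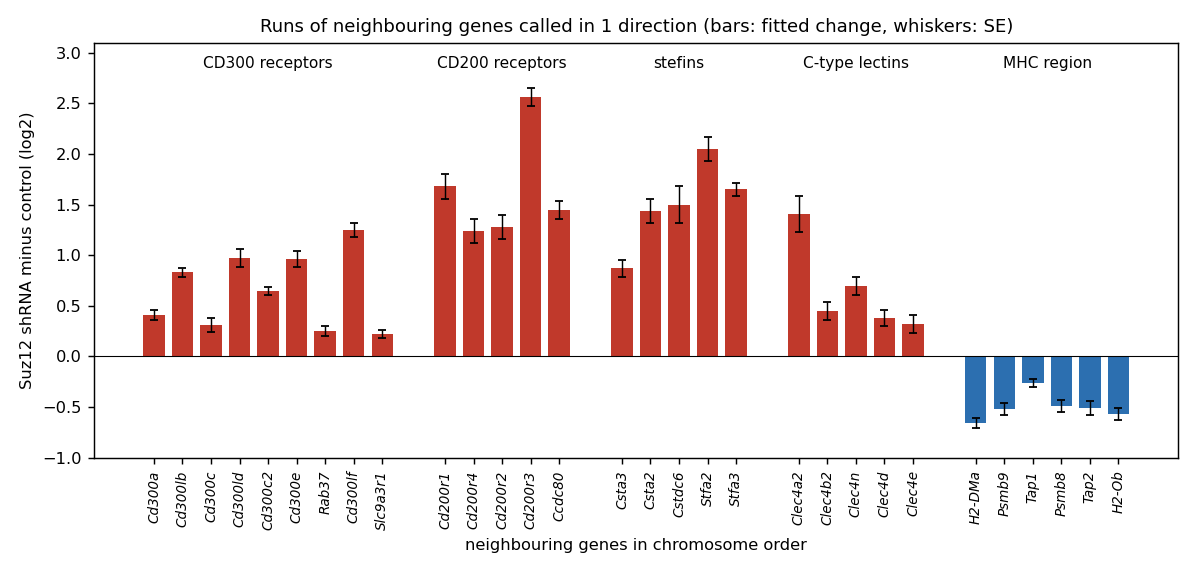
Bars give the fitted Suz12 shRNA minus control change (log2, y axis) and whiskers its SE for genes of 5 runs, in chromosome order on the x axis. All genes of the receptor, stefin and lectin runs are above 0, from 0.22 for Slc9a3r1 to 2.56 for Cd200r3, and all 6 genes of the MHC run are below 0.

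The longest run of lower genes lay in the MHC region of chromosome 17 and held H2-DMa, Psmb9, Tap1, Psmb8, Tap2 and H2-Ob, with changes of -0.66, -0.52, -0.26, -0.49, -0.51 and -0.57. Psmb8 and Psmb9 are catalytic subunits of the immunoproteasome, Tap1 and Tap2 form the peptide transporter, and H2-DMa and H2-Ob act in MHC class II peptide loading. The third immunoproteasome subunit, Psmb10, is encoded elsewhere and fell from 10.41, 10.42 and 10.31 to 9.82, 9.67 and 9.76, a change of -0.63 (SE 0.06, adjusted p = 3.55e-05). Of 16 genes of MHC class I presentation, 8 fell and none rose. Of 39 proteasome subunits 4 fell, and the immunoproteasome subunits were 3 of those 4. In the class II pathway 2 of 12 genes rose and 3 fell, and the invariant chain Cd74 rose by 0.64.

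Called adhesion and cytoskeletal genes were more often higher than lower. Of 46 actin cytoskeleton genes 18 rose and none fell (median 0.10), and of 26 tetraspanins 11 rose and 4 fell (median 0.14). Anxa1, a phospholipid-binding protein with anti-inflammatory action, rose from 9.57, 9.28 and 9.61 to 10.92, 10.79 and 10.93, or 2.63-fold. The actin-severing protein Gsn rose by 0.79 (SE 0.04). Of 31 integrins 9 rose (29.0%, against 8.25% of all genes) and 5 fell (16.1%, against 12.9%). Itgax, the CD11c chain, rose from 7.25, 7.13 and 7.27 to 8.82, 8.78 and 8.84, and Itga2b, the platelet chain CD41, rose by 1.38 (SE 0.05). By contrast Itga4, a chain of the receptor for VCAM-1, fell from 11.11, 10.95 and 11.19 to 10.38, 10.4 and 10.47, a change of -0.66 (SE 0.06, adjusted p = 2.8e-05). Outside the cell, Thbs1, which encodes thrombospondin, rose by 2.99; of 79 matrix genes 7 rose (8.86%, near the 8.25% of all genes) and 1 fell.

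Called lysosomal and lipid mediator genes were also more often higher than lower. Of 43 cathepsins and lysosomal hydrolases 15 rose (34.9%, against 8.25% of all genes) and 5 fell (11.6%, near the 12.9% of all genes). Their median was 0.09, and Ctsh rose by 1.68 (SE 0.11). Of 23 subunits of the vacuolar proton pump 8 rose and none fell (median 0.10), and 13 rose with cyclic loess; Atp6v0d2, an alternative subunit found in osteoclasts and macrophages, rose by 1.19 (SE 0.09). Of 26 eicosanoid genes 11 rose and 1 fell (median 0.05). Alox5, the first enzyme of leukotriene synthesis, rose from 11.5, 11.46 and 11.28 to 12.53, 12.53 and 12.54, and Hpgds, the haematopoietic prostaglandin D synthase, by 0.93 (SE 0.10). The gene that fell was Hpgd, the enzyme that inactivates prostaglandins, from 12.38, 12.25 and 12.38 to 11.14, 10.94 and 11.06, a change of -1.29 (SE 0.06, adjusted p = 4.83e-07). The groups of Alox5 and of Hpgd were widely separated.

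The interleukin, chemokine and AP-1 lists held called genes at shares near the 21.2% of all genes, but their calls leaned to higher. Called higher were 17.2%, 15.3% and 21.4% of these lists, against 8.25% of all genes. Called lower were 3.45%, 6.78% and 0.0%, against 12.9%. Of 87 interleukins, colony-stimulating factors and their receptors 15 rose, 11 of them by at least 1.5-fold, and 3 fell. Over all genes 2.03% were called and at least 1.5-fold higher. Il1rn, the antagonist of the interleukin 1 receptor, rose from 9.05, 9.18 and 8.94 to 10.99, 11.05 and 11.0, and Csf1, the macrophage growth factor, rose by 1.2 (SE 0.12). Il12a, a subunit of interleukin 12, fell by 0.83 (SE 0.07). Of 59 chemokines and receptors 9 rose and 4 fell; Ccr1 rose by 1.01 and Cxcl10, an interferon-induced chemokine, fell by 1.08 (SE 0.20). Of 28 AP-1 and immediate early genes 6 rose and none fell, with Btg2 at 0.96 (SE 0.06) and Klf6 at 0.71 (SE 0.11). Of 49 Toll-like, NOD-like and related genes 9 rose (18.4%, against 8.25% of all genes) and 6 fell (12.2%, near the 12.9% of all genes). The largest of these falls were those of the adaptors Tifa and Tifab, at -1.2 and -1.05.

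Among myeloid transcription factors the C/EBP family members changed in opposite directions. Of 25 measured, 7 rose and 3 fell. Cebpa, which drives early granulocyte commitment, read 10.14, 10.36 and 10.19 in controls and 9.38, 9.39 and 9.48 in the knockdown, a fall of 0.82 (SE 0.07, adjusted p = 3.01e-05). Cebpe, which drives late granule genes, read 11.96, 11.87 and 11.94 and then 12.52, 12.48 and 12.52, a rise of 0.58 (SE 0.04, adjusted p = 5.17e-06). Irf8, a determinant of the monocyte and dendritic lineages, fell from 11.01, 11.03 and 11.3 to 10.09, 10.13 and 10.02, and Id2, an inhibitor of helix-loop-helix factors, rose by 1.05 (SE 0.06). No pair of groups overlapped in these 4 genes, as in 4184 of the 4222 called genes. Flt3, a progenitor receptor kinase, fell by 1.41 (SE 0.12).

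Most classical developmental regulators did not pass the test. Of 37 genes of the Hox clusters none rose and 1 fell, and their changes ranged from -0.15 to 0.14. Hoxa9, a target of MLL fusions, changed by -0.07 (95% interval -0.17 to 0.04, adjusted p = 0.401), and its cofactor Meis1 by 0.17 (95% interval 0.05 to 0.30, adjusted p = 0.0527). The single Hox call, Hoxa7 at -0.15, was lost under 7 other settings. Of 93 homeobox genes outside the clusters 1 rose and 2 fell, and of 63 Wnt, Bmp, Fgf and Hedgehog ligands 2 rose and none fell. These shares lie below the 8.25% and 12.9% of all genes, and a gene near background signal in both groups can rarely be called.

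Single developmental and imprinted genes rose. Of 79 T-box, Gata, Sox and forkhead genes 6 rose (7.59%, no more than the 8.25% of all genes) and 3 fell. Tbx15, a T-box factor of skeletal development, rose from 5.47, 5.43 and 5.27 to 6.33, 6.18 and 6.1, a change of 0.81 (SE 0.07). Its knockdown mean of 6.2 was still below the background guide of 6.32. Gata2 and Gata1, factors of mast cells, megakaryocytes and erythroid cells, rose by 0.71 (SE 0.07) and 0.68 (SE 0.08). Of 27 imprinted genes 5 rose (18.5%) and 1 fell (3.7%, against 12.9% of all genes). The adjacent imprinted genes Peg10 and Sgce rose by 2.30 and 1.55; Peg10, derived from a retrotransposon, went from 7.15, 7.55 and 7.21 to 9.54, 9.69 and 9.57.

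Some genes of cell cycle arrest and of the p53 pathway rose. Of 7 CDK inhibitors 4 rose and none fell, with Cdkn2a at 1.2 (SE 0.06) and Cdkn2b at 1.09 (SE 0.08). The smaller rises of Cdkn1c (0.26) and Cdkn3 (0.17) both lost their calls without Suz12 array 1 or without control array 2, which left 2 of 7. Of 30 p53 targets 15 rose and 3 fell (median 0.23). Trp53inp1, a stress protein that promotes p53 activity, rose from 8.81, 8.57 and 8.74 to 10.5, 10.34 and 10.42, and Zmat3, an RNA-binding p53 target, rose by 1.10 (SE 0.07). Of 19 BCL2 family genes 3 rose and 3 fell (15.8% each, against 8.25% and 12.9% of all genes). Bcl2l11, which encodes the pro-apoptotic protein BIM, rose from 8.95, 9.05 and 9.05 to 10.14, 10.18 and 10.27 (change 1.18, SE 0.06, adjusted p = 6.53e-07), whereas the anti-apoptotic Bcl2 fell by 0.30 (SE 0.04). Other calls went the other way: the anti-apoptotic Mcl1 was called higher and the pro-apoptotic Bid lower. Both lost their calls under other settings, among them leaving out Suz12 array 1 (changes of 0.14 and -0.15).

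Proliferation genes fell broadly and by small amounts. Of 55 DNA replication and G1/S genes 43 fell and 1 rose (median -0.26), of 55 mitosis and G2/M genes 34 fell and none rose (median -0.23), and of 45 genes for repair of breaks and crosslinks 37 fell and 1 rose (median -0.30). Orc1, the largest subunit of the origin recognition complex, read 8.59, 8.54 and 8.8 in controls and 8.13, 7.97 and 8.03 in the knockdown, a fall of 0.60 (SE 0.07, adjusted p = 0.000255). Aurkb, the chromosomal passenger kinase, fell by 0.40 (SE 0.06), and the exonuclease Exo1 by 0.50 (SE 0.06). Of 27 replication-dependent histone genes 16 fell, but the count was between 6 and 17 when single arrays were left out and 9 with cyclic loess. Such transcripts mostly lack poly(A) tails and are similar to each other, so probes may share signal.

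The share of growth and biosynthesis genes that fell differed between compartments. Of 53 ribosome biogenesis and nucleolar genes 40 fell and none rose (median -0.21), with Polr1b, a subunit of RNA polymerase I, at -0.47 (SE 0.04). Of 34 aminoacyl-tRNA synthetases 24 fell and none rose (median -0.23), and of 30 serine, one-carbon and nucleotide synthesis genes 23 fell and 3 rose (median -0.24). Ppat, the first enzyme of purine synthesis, fell from 11.08, 11.12 and 11.23 to 10.72, 10.6 and 10.6. Of 77 mitochondrial ribosomal proteins 46 fell (median -0.19), though 30 did with cyclic loess and 30 to 37 did when single arrays were left out. Of 54 cytosolic ribosomal protein genes 2 fell (3.7%, against 12.9% of all genes; median -0.02). For the respiratory chain, 9 of 78 subunits fell (11.5%, near the share of all genes) and 2 rose (median -0.07); the number that fell was 5 to 11 when single arrays were left out, 14 after median centring and 16 with an intensity trend in the variance model. Myc, whose protein drives ribosome biogenesis genes, fell from 12.85, 12.98 and 12.89 to 12.47, 12.53 and 12.45, a change of -0.42 (SE 0.05, adjusted p = 0.000128).

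Stress response genes fell more often than they rose. Of 40 unfolded protein and ATF4 response genes 19 fell (47.5%) and 3 rose (7.5%). Aldh1l2, a mitochondrial folate enzyme, fell from 7.66, 8.12 and 8.24 to 6.88, 7.02 and 6.93, a change of -1.07 (SE 0.12). Slc7a11, the cystine transporter, rose from 10.33, 11.27 and 10.6 to 12.26, 12.34 and 12.31, a change of 1.57 (SE 0.19, adjusted p = 0.000285). The control arrays of Slc7a11 spread over almost 1 log2 unit, and all knockdown arrays lay above them.

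Called genes with zinc finger names were more often lower than higher. The list of 404 genes was matched by names such as Zfp, Zscan and Zkscan, and it also held Zbtb16. Zinc finger patterns were not checked in the proteins. Of these genes 71 fell (17.6%, against 12.9% of all genes) and 12 rose (2.97%, against 8.25%). The other 321 were not called, and the median was -0.07. The number that fell was between 50 and 83 when single arrays were left out. Zfp111 fell by 0.55 (SE 0.07) and Zfp658 rose by 0.73 (SE 0.07). Of 74 core spliceosome and SR protein genes 23 fell and none rose (median -0.10), and 12 fell with cyclic loess.

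**Figure D5:**
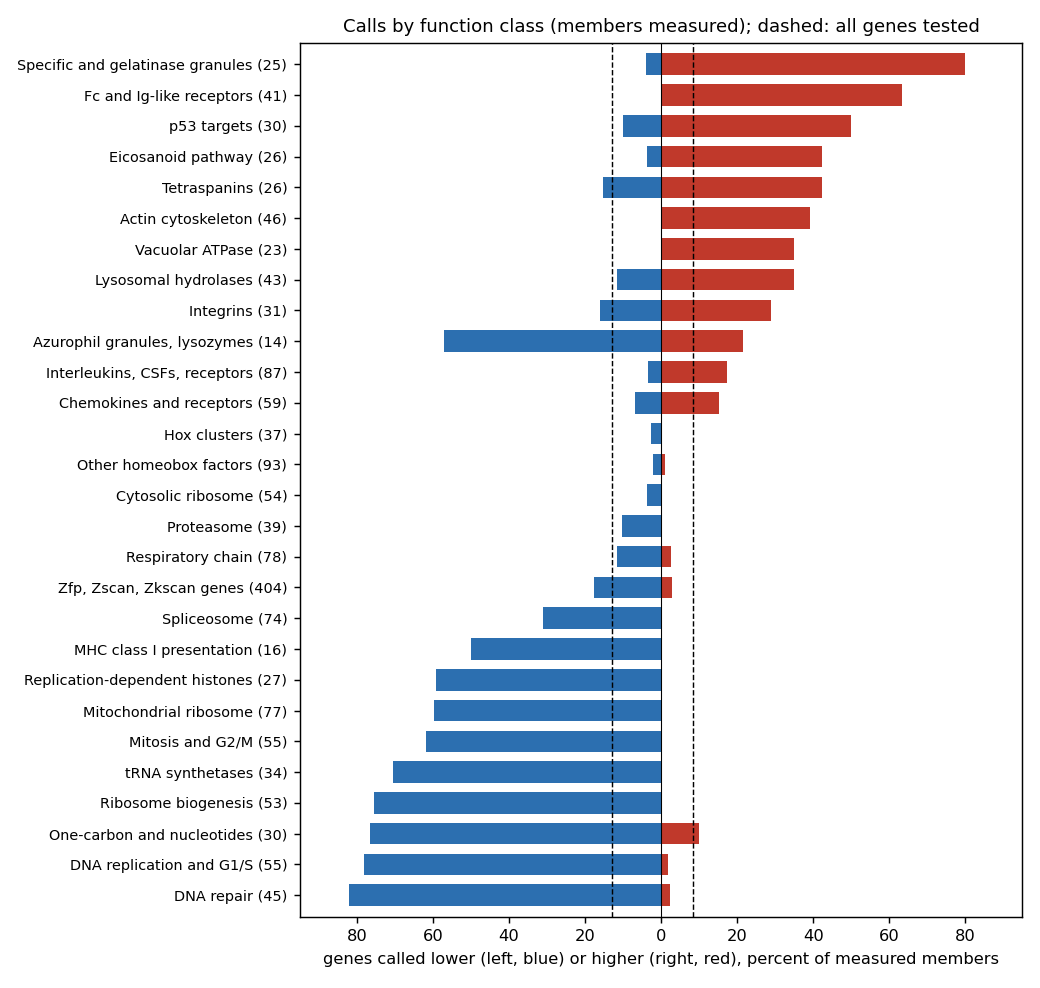
Percent of measured members called lower (blue, left) and higher (red, right) on the x axis for 28 function classes (y axis, members in parentheses); dashed lines mark 12.9% lower and 8.25% higher over all genes. The receptor class of Fc and Ig-like genes reaches 63.4% higher, DNA repair 82.2% lower, and the Hox clusters and the cytosolic ribosome stay near 0.

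Markers of other cell types were read beside these results. Of 14 megakaryocyte and platelet markers 5 rose, 11 lay above the background guide in at least 1 group, and their summed log2 level went from 12.44 to 12.59 in controls to 12.84 to 12.9 in the knockdown. For 14 erythroid markers (2 rose, 1 fell, 8 above the guide) the range went from 12.24 to 12.35 to 12.16 to 12.21, and for 19 dendritic cell markers (2 rose, 3 fell, 12 above the guide) from 12.06 to 12.13 to 12.07 to 12.13. For 17 B cell markers (2 rose, 1 fell, 4 above the guide) the ranges were 10.3 to 10.35 and 10.45 to 10.54, and for 21 T and NK cell markers (1 rose, 1 fell, 11 above the guide) 11.83 to 12.03 and 12.02 to 12.09. For 20 fibroblast, stromal and endothelial markers (3 rose, 1 fell, 12 above the guide) they were 12.25 to 12.28 and 12.29 to 12.36. In the myeloid identity list itself 5 of 14 genes rose and 1 fell, with summed levels of 15.4 to 15.41 and 15.56 to 15.61. The part of such cells in the results was not tested.

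The Suz12 and Eed arrays were also set against each other directly. Changes of either against controls rest on the same control arrays. Of 19937 genes, 35 differed (0.176%), 28 higher (0.14%) and 7 lower (0.0351%) in the Suz12 arrays, and 1209 had an unadjusted p under 0.05. The 2 targets differed in the direction of their hairpins, Suz12 by -1.82 and Eed by 1.61. The largest remaining difference was Fn1, which encodes fibronectin and was 1.18 higher with Suz12 shRNA (SE 0.09, adjusted p = 0.000617); against controls it changed by 1.8 with Suz12 shRNA and 0.62 with Eed shRNA. Ltf, lactoferrin, was 1.02 higher (SE 0.07, adjusted p = 0.000167), with changes against controls of 1.22 and 0.19. Ngp was 0.59 higher, and Camp and Lcn2, specific granule genes singled out after their values were seen, were 0.69 and 0.40 higher. In all, 5 of the 25 specific and gelatinase granule genes differed between the knockdowns. Of the 35 genes, 30 were also called against controls, a comparison that shares the Suz12 arrays. Without any single Eed or Suz12 array the number that differed was lower: it was 10, 8 and 11 without Eed arrays 1, 2 and 3, and 12, 16 and 18 without Suz12 arrays 1, 2 and 3.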

How the data were processed

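Total RNA of 9 samples was hybridised to Affymetrix whole-transcript arrays. The deposited values are log2 signals, which the authors made with RMA, per the submitters' processing notes; RMA's version was not given in the sources used here. Of 34760 probe sets, 21640 had 1 gene symbol in the platform table, 1321 had several and 11799 had none here. Each of 19937 genes was read from its brightest probe set (highest average of the 9 arrays).

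limma 3.58.1 (R 4.3.3; lmFit and eBayes, 1 mean per group, no covariates) was fitted to all 9 arrays, with 6 residual and 4.11 prior degrees of freedom. A gene was called at a two-sided adjusted p under 0.05 (Benjamini-Hochberg over all genes). The number of arrays, 3 a group, limits the precision: the median SE was 0.054 on the log2 scale. In data simulated for the Suz12 shRNA against control comparison over 19937 genes, the fit recovered 25 of 50 genes changed 1.2-fold, 46 of 50 at 1.5-fold and 50 of 50 at 2-fold and at 4-fold, with 9 false calls. The simulation changed no other genes and drew normal noise independently for each gene and array. The real data held far more calls (21.2% of genes), so these rates of recovery and false calls need not hold for them.

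The 88 gene lists, the named genes and the tests were chosen with earlier results of these data known, so lists are described by counts and medians only. Named were all PRC2 subunits, the 30 largest rises and 20 largest falls among called genes whose arrays did not overlap (clone names and small RNAs passed over: 2 rises and 1 fall), up to 5 called members of each list by size, the 5 largest differences from Eed shRNA each way, members of neighbour runs, and the cell identity markers. Histone list names were updated to current symbols. The background guide and the limit of promoters to protein-coding genes off chromosome 18 were added after the data were seen. Gene order came from RefSeq. Alternatives were the 6 arrays alone, 3 rescalings, a filter on dim genes, other uses of probe sets, another variance model, the replicate number as a block, and leaving out single arrays.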

Additional observations from a re-analysis of the deposited data

Results flagged for a closer look

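Results are listed here where a test found a difference between the Suz12 and Eed knockdowns under the same controls, or where probe sets outside the gene-level comparison changed. The hairpin targets came first: Suz12 was 1.82 lower in the Suz12 arrays (a difference of -1.82, log2) and Eed was 1.61 higher. Higher in the Suz12 arrays than in the Eed arrays were the matrix gene Fn1 by 1.18, the specific granule genes Ltf by 1.02 and Ngp by 0.59, and the gelatinase Mmp9 by 0.57. The secreted factors Bmp2 and Retnla were higher by 0.88 and 0.77. The transcription factor Tbx15 was higher by 0.51, the zinc transporter Slc30a4 by 0.46 and the olfactory receptor Olfr1290 by 0.46. The means of Tbx15, 6.2 in the Suz12 and 5.69 in the Eed arrays, were below the background guide of 6.32. Lower in the Suz12 arrays were the anion channel subunit Lrrc8a by a difference of -0.47, the binding protein Igfbp7 by -0.41, the metalloproteinase Mmp19 by -0.40 and the oxidoreductase Foxred2 by -0.36. Igfbp7 rose against controls with both hairpins, by 1.41 with Suz12 shRNA and 1.81 with Eed shRNA.

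Of 11799 probe sets with no gene name here, 214 were called higher and 295 lower against controls, and 15 of the former rose by at least 2-fold.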

How the results depend on the processing

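The number of genes that differed between Suz12 and Eed shRNA was 35 and lay between 8 and 37 when single arrays were left out (8 to 18 without 1 of the Eed or Suz12 arrays); the cause was not tested. The counts of calls against controls, in total, by direction and at 1.5-fold and 2-fold, stayed within 1.5 times the reported ones under every setting run, and so did the direction and call of Suz12. Ezh2, which was not called, changed sign with cyclic loess (0.03), with quantile normalization (0.01) and without control replicate 1 (0.0; range -0.02 to 0.0 over single arrays left out), and Gsdme changed sign when its probe sets were averaged (-0.04); the cause was not tested. Of 500 named genes that were called, 97 lost the call under at least 1 of 14 settings, and none of the 30 largest rises and 20 largest falls did. Of 40 lists with at least 8 calls in a direction, 9 had a count that moved by over 1.5 times. P2rx3, among the named falls at -1.19, has another probe set that changed by 0.06.

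With the replicate number as a block, 3864 of the 4222 calls were shared. Samples of the same number in the control and Suz12 shRNA groups correlated at -0.076, 0.201 and 0.116 in their deviations from the group means. Samples of different number in these groups ranged from -0.329 to 0.271. With so wide a range these values cannot tell whether the numbers pair the samples. The planned split by protein class was not run, nor were its alternatives, because no protein sequences were used here.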
